A study of Mus musculus with 9 samples.

Results

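Messenger RNA of activated CD8 T cells of the mouse under DAHB was read by setting 3 libraries of cells kept in 20 mM DAHB against 3 libraries of cells kept in 20 mM NaCl, which are 6 of the 9 libraries of the series. The remaining 3 libraries came from cells given DAHB with 10 nM oligomycin, an inhibitor of mitochondrial ATP synthase (DAHB+O), and their values stand beside some results without a test. The cells were wild-type CD8 T cells of spleen and lymph nodes, stimulated through CD3 and CD28, and 100000 cells per sample were treated overnight. What the letters DAHB stand for is not spelled out in the labels, and its dose is not repeated for the DAHB+O group. All groups share the stimulation, the culture and 1 batch label, and whether the 3 libraries of a group were separate mice or separate wells is not stated, so the p-values below measure the spread between these libraries, which may be technical. Of 16344 genes in the deposited table, the 14169 with a mean of at least 10 normalized counts over the 9 libraries were tested. A normalized count is a read count divided by a size factor of its library, a fold change is a difference of log2(normalized count + 1), and a gene was called at a limma adjusted p under 0.05.

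CD8 T cells recognise peptides on MHC class I through the T cell receptor. The signal runs through kinases and adaptors to the transcription factor families NFAT, AP-1 and NF-kappaB, which together with costimulation and interleukin-2 switch on growth, division, cytokines and the granule proteins used for killing. Feedback proteins such as the DUSP phosphatases, the SOCS proteins and the NR4A and EGR factors are induced by the same signals. Activated cells take up more glucose and amino acids, build ribosomes, lipids and nucleotides, and divide within hours to days.

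The libraries held 33811363 to 39207045 reads in NaCl and 32738726 to 36088702 in DAHB. Transcripts of the mitochondrial genome, ribosomal RNAs included, made up 1.39% to 1.41% of the normalized counts of NaCl libraries. In DAHB libraries the share was 1.89% to 2.37%, without overlap. Pearson's r of log2 values over all genes tested, which do not count as replicates, was 0.995 to 0.996 between NaCl libraries, 0.994 to 0.995 between DAHB libraries and 0.947 to 0.954 between the groups. No pair of libraries differed as little as sampling noise. Markers of CD8 T cells were abundant in both groups, with Cd8a at 16906 ± 320.3 normalized counts without and 22083 ± 762 with DAHB and Cd8b1 at 14716 ± 339 and 18220.2 ± 226 (SD over 3 libraries). Summed markers of CD4 and regulatory T cells, mostly Ctla4, which activated CD8 T cells also make, ran from 24046 to 24618 in NaCl and from 33597 to 39715 in DAHB, with 3 of 6 tested markers higher and 1 lower. In this list Cd4 was at 168 ± 18.4 and 216 ± 8.82 and Zbtb7b, which encodes the CD4 lineage factor ThPOK, at 1201 ± 63.9 and 2019 ± 34.9 (SD, n = 3), while Foxp3 and Cd40lg stayed at or under 11.8 in every NaCl and DAHB library. Summed markers of B cells and plasma cells, mostly Ighm, ran from 8265 to 8945 in the NaCl libraries and from 3109 to 3420 in those with DAHB, with 2 of 11 tested markers higher and 7 lower. Summed markers of monocytes and macrophages ran from 646 to 801 and from 1619 to 1983, with 4 of 7 tested markers higher and 3 lower, mostly through Cd68 and Ccr2, while Csf1r, Lyz2 and Cd14 were lower in DAHB. Only Ly6g and Cxcr2 of the neutrophil list were in the table, and their sum was 4.14 to 17.7 in NaCl and 30.8 to 98.0 in DAHB, highest in DAHB replicate 3. In a bulk sample, fewer cells of a type and less RNA per cell cannot be told apart.

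At the called threshold 5031 genes were higher in DAHB (35.5% of those tested) and 5441 lower (38.4%), so 73.9% were called in all. The 3 DAHB values did not overlap the 3 NaCl values for 75.6% of genes. With this background a called gene is the rule, and the counts of members below are read against 35.5% higher and 38.4% lower. Genes named from a list or as the largest changes had to show no overlap, so for them its absence was set by the choice. The rises and falls differed in size and in the kind of gene. Of the higher genes 2085 rose at least 2-fold (14.7% of those tested), and of the lower genes 571 fell at least 2-fold (4.03%). The genes with a rise of at least 2-fold were weakly expressed, with a median of 24.3 in NaCl and 107 in DAHB. Some of them may have passed the filter on the mean only through libraries where they were high. Called genes that rose by less than 2-fold were 2946, with a median of 760 in NaCl and 1019 in DAHB. Genes that fell by less than 2-fold were 4870, with a median of 1703 in NaCl and 1273 in DAHB. For the 571 falls of at least 2-fold the medians were 919 and 361. The median log2 fold change over all genes tested was -0.02. Size factors put the libraries on a common scale, so this median and the balance of rises and falls depend on the scaling. A change in total RNA per cell cannot be seen in these values.

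**Figure D1:**
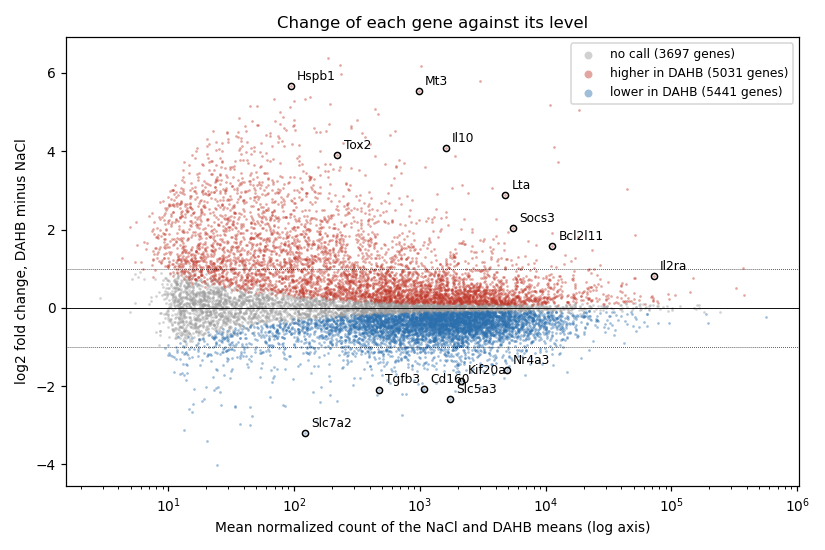
Log2 fold change (DAHB minus NaCl) of each of 14169 genes against the mean of its NaCl and DAHB levels in normalized counts (log axis). Points are coloured by call, circles mark genes named in the text and dotted lines mark a 2-fold change. The largest changes are rises, most of them at low levels, while the 5441 lower genes lie mostly between 0 and the lower dotted line.

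Across 69 gene lists the shares of members called higher ran from 0% to 84.6%. The lists with the highest medians were cytokines and chemokines, MHC class II presentation, and 1 made of collagens, laminins, cadherins and claudins. Replication fork proteins, kinetochore proteins and cohesin and condensin subunits had the lowest medians. Several lists of housekeeping functions had a median near 0, with ribosomal proteins at a median of 0.04, complex I at 0.03 and ATP synthase at 0.02 on the log2 scale, where the ribosomal proteins' median was -0.01 under quantile normalization and that of ATP synthase was -0.01 without NaCl replicate 1 or DAHB replicate 2.

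**Figure D2:**
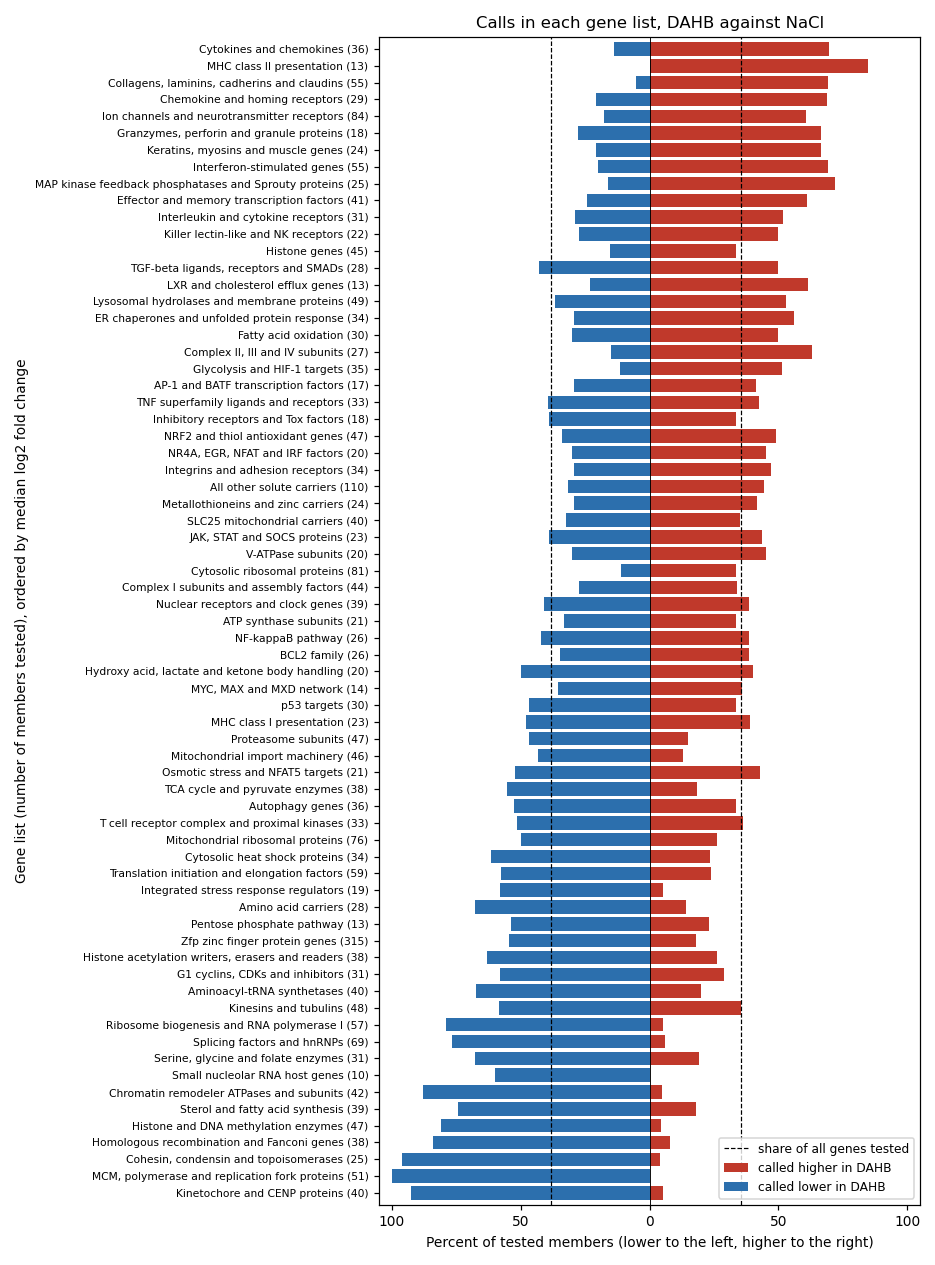
Percent of tested members called higher (red, to the right) and lower (blue, to the left) in DAHB against NaCl for each of 69 gene lists, ordered by median log2 fold change, with the number of members tested in brackets. Dashed lines mark the shares of all 14169 genes, 35.5% higher and 38.4% lower, and the lists of cell division at the bottom pass the lower one by far while those of cytokines and MHC class II pass the upper one.

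Nr4a1 and Nr4a3 encode orphan nuclear receptors induced within the first hours of receptor signalling. Nr4a1 stood at 8228, 7252 and 7278 in the NaCl libraries and 2475, 2993 and 2672 in the DAHB libraries, every DAHB value below every NaCl value. Nr4a3 (chromosome 4, 48045153 to 48086447, coordinates here and elsewhere on GRCm38, which is mm10) stood at 8099.9, 6809 and 7188 in the NaCl libraries and 2790.2, 2355 and 2189.8 in the DAHB libraries and fell by 1.59 ± 0.091 on the log2 scale (SE, limma adjusted p = 5.16e-10). Egr3, which encodes a zinc finger factor of the same early response, fell 2.32-fold from 4137 ± 410.0 normalized counts (SD, n = 3), whereas Egr1 gave 5677 ± 188 and 5688 ± 125 and was not called. Irf4, a factor graded with receptor signal strength, rose 1.38-fold from 19893 ± 655, and Nfatc2, an NFAT protein, rose 1.67-fold. In this list 9 of 20 tested members were higher and 6 lower, with a median log2 fold change of 0.10. Of the AP-1 and BATF list 7 of 17 were higher and 5 lower (median 0.14). Batf3, a partner of JUN proteins, rose 2.66-fold to 1387 ± 167, Jun rose 1.48-fold, and Fosl1, which encodes the AP-1 subunit FRA-1, fell 1.42-fold. Fos was at 308 ± 37.5 and 333 ± 18.9 and was not called. The DAHB+O libraries held 5293 ± 655 of Nr4a3 and 1728 ± 144 of Batf3 (SD, n = 3).

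Of the MAP kinase phosphatases and Sprouty proteins 18 of 25 were higher and 4 lower (2 without DAHB replicate 3 or NaCl replicate 3), with a median log2 fold change of 0.47. Dusp3, a phosphatase of ERK and JNK, rose 3.10-fold from 250.2 ± 10.9 to 777 ± 31.2 and Dusp22 2.48-fold to 2637 ± 193, while Spry2, an inhibitor of receptor-driven RAS signalling, fell 1.45-fold (SD, n = 3). In the JAK, STAT and SOCS list the split was even, 10 higher and 9 lower of 23 (median 0.06). Socs3 (chromosome 11, 117966079 to 117970047), which encodes an inhibitor of cytokine receptors that signal through gp130, stood at 1939, 2341 and 2215 in the NaCl libraries and 8608, 9227 and 8918 in the DAHB libraries without overlap. It rose by 2.05 ± 0.057 on the log2 scale (SE, limma adjusted p = 3.87e-13), and the DAHB+O libraries held 1499.6, 1473 and 1429. Stat6, the transducer of interleukin-4, fell 1.77-fold from 8429 ± 33.1 to 4769.8 ± 36.9. The NF-kappaB pathway had 10 higher and 11 lower of 26 (15 and 7 under quantile normalization), with a median of 0.02, which was -0.00 without DAHB replicate 3. Tnip3, an A20-binding inhibitor of the pathway, stood at 955, 1091 and 1047 in the NaCl libraries and 3942, 4416 and 4153 in the DAHB libraries. The DAHB values were all above the NaCl values, and Tnip3 reached 739 ± 54.2 in DAHB+O. Bcl3, a nuclear partner of NF-kappaB, rose 1.73-fold, and Nfkb2 and Tnip1 fell 1.32-fold and 1.47-fold.

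Genes of the receptor complex itself changed by small amounts in both directions. Of 33 tested genes of the T cell receptor complex and its proximal kinases 12 were higher and 17 lower, with a median of -0.14. Cd3g rose 1.43-fold to 19975 ± 634 while Cd3d, another CD3 chain, fell 1.20-fold to 11169.6 ± 303 (SD, n = 3). The largest fall was in Lcp2, which encodes the adaptor SLP-76 that links the kinase ZAP-70 to phospholipase C gamma. Lcp2 stood at 11461, 10753 and 10754 in the NaCl libraries and 4410.1, 4007 and 3767 in the DAHB libraries. It fell by 1.44 ± 0.053 on the log2 scale (SE, limma adjusted p = 5.36e-12) without overlap between groups, and DAHB+O held 4669 ± 218. Plcg1, the phospholipase itself, fell 1.56-fold and Ubash3a, a suppressor of receptor signalling, 1.79-fold. The kinase gene Lck was at 18860.4 ± 516 and 18179.9 ± 306 and was not called.

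In the TNF superfamily list 14 of 33 were higher and 13 lower, with a median of 0.14 that was -0.08 under quantile normalization. Lta (chromosome 17, 35203165 to 35205351), which encodes lymphotoxin alpha, stood at 1265, 1128 and 1003 in the NaCl libraries and 10786, 7701 and 6789.6 in the DAHB libraries, and rose 7.33-fold. DAHB+O held 14278, 11269 and 10151, so its 3 values of Lta overlapped those of DAHB. Tnfrsf8, encoding CD30, stood at 1120.0, 1548 and 1443 in the NaCl libraries and 5546, 6423 and 7908 in the DAHB libraries and reached 989 ± 187 in DAHB+O. Tnfrsf13c, the receptor for BAFF, rose 4.47-fold to 703 ± 55.9, and Cd27, a costimulatory receptor of naive and memory T cells, fell 2.96-fold from 4483 ± 55.8 to 1512 ± 26.4 (SD, n = 3). Tnfrsf9, encoding the costimulatory receptor 4-1BB, fell 1.40-fold from 33825 ± 660.5.

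Among inhibitory receptors and Tox factors 6 of 18 were higher and 7 lower, with a median of 0.13 that was -0.05 under quantile normalization and -0.06 at a minimum mean of 50. Tox2, which encodes a nuclear factor related to TOX, stood at 32.1, 24.6 and 23.6 in the NaCl libraries and 368, 425 and 449 in the DAHB libraries and rose by 3.91 ± 0.13 on the log2 scale (SE, limma adjusted p = 1.48e-12). Entpd1, the ectoenzyme CD39, rose 3.12-fold to 1139 ± 156, and Ctla4 rose 1.66-fold from 20292 ± 356 to 33788 ± 3458 (SD, n = 3). In the opposite direction Cd160, an inhibitory receptor that binds HVEM, stood at 1759, 1713 and 1737 in the NaCl libraries and 435, 397 and 404 in the DAHB libraries. Cd96, a receptor for nectin-family ligands, fell 2.18-fold. DAHB+O held 322 ± 24.2 of Tox2 and 314 ± 17.5 of Cd160.

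Cytokine receptors were higher more often than lower, with 16 of 31 higher and 9 lower and a median of 0.35. The list took up 0.586 ± 0.00795% of a NaCl library's normalized counts and 0.798 ± 0.0201% of a DAHB library's (SD, n = 3). Il2ra (chromosome 2, 11642807 to 11693193), the alpha chain that gives the interleukin-2 receptor its high affinity, stood at 51638, 54005 and 51407 in the NaCl libraries and 87729, 92009 and 95482 in the DAHB libraries, and at 37694 ± 352 in DAHB+O. It rose by 0.81 ± 0.041 on the log2 scale (SE, limma adjusted p = 1.37e-10), and the beta chain gene Il2rb, at 68623 ± 1439.6 and 72687 ± 162, was not called. Il23r, the receptor for interleukin-23, rose 4.80-fold from 34.9 ± 9.80, and Il18r1 and Il6ra rose 2.43-fold and 2.43-fold. The chains of the interferon receptors Ifngr2 and Ifnar2 fell 1.66-fold and 1.72-fold.

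Cytokines and chemokines had one of the largest shares of higher members, 25 of 36 with 5 lower (10 under quantile normalization), and a median of 1.27. Their share of a library's normalized counts was 0.0559 ± 0.00236% under NaCl and 0.315 ± 0.023% under DAHB (SD, n = 3). Il10 (chromosome 1, 131019845 to 131024974), which encodes an anti-inflammatory cytokine that effector CD8 T cells can also make, stood at 128, 220.2 and 198 in the NaCl libraries and 2714, 2951 and 3409 in the DAHB libraries. It rose by 4.08 ± 0.19 on the log2 scale (SE, limma adjusted p = 4.97e-11) and was 74.6, 86.4 and 126 in DAHB+O. Xcl1, a chemokine that attracts cross-presenting dendritic cells, rose 2.67-fold from 1522 ± 200.3. In all 23 members rose at least 2-fold, and the highest log2 fold change of the list was 5.19. Members not named here held most of the rise in share. Fewer members went down. Tgfb3, a ligand of the TGF-beta receptors, stood at 736, 817 and 742 in the NaCl libraries and 140.3, 196 and 209.6 in the DAHB libraries and at 29.6 ± 3.70 in DAHB+O, and Tgfb1 fell 1.33-fold to 5534 ± 675. Il16, the precursor of a CD4 ligand, fell 2.06-fold. Of the wider TGF-beta list 14 were higher and 12 lower of 28, with a median of 0.21 that was -0.06 under quantile normalization and -0.08 at a minimum mean of 50. Ltbp3, a latent TGF-beta binding protein, rose 4.61-fold.

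Of 29 tested genes that guide T cells through tissue 20 were higher and 6 lower, with a median of 0.83. Ccr3 rose from 31.9 ± 11.7 to 372 ± 92.0 and Ccr2 from 191 ± 57.3 to 628 ± 84.7 (SD, n = 3). Genes for recirculation through lymphoid organs went both ways. S1pr1, the sphingosine 1-phosphate receptor used to leave lymph nodes, stood at 571, 740.3 and 729 in the NaCl libraries and 1707, 1969.6 and 2082 in the DAHB libraries, and Klf2, the factor that drives it, rose 2.70-fold from 369.9 ± 22.9. Ccr7, which guides cells into lymph nodes, fell 1.27-fold from 29189 ± 596. Selplg, the main selectin ligand, fell 1.66-fold from 22334 ± 779 to 13482 ± 960.3. Cxcr6 rose 1.36-fold, a call that was lost without DAHB replicate 3 or NaCl replicate 1. In the integrin list 16 were higher and 10 lower of 34 (median 0.10). Itgae, the CD103 chain that binds E-cadherin, fell 2.61-fold from 790.2 ± 116, Itgb3 fell 1.87-fold and Itgb5 rose 8.55-fold from 28.003 ± 5.06 to 245 ± 18.3.

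Granule proteins were higher in 12 and lower in 5 of 18 genes, with a median of 0.75, and made up 0.971 ± 0.014% of the normalized counts of NaCl libraries and 2.02 ± 0.0473% of those of DAHB libraries (SD, n = 3). The called rises included 5 of at least 2-fold, and the highest log2 fold change of the list was 3.05. Members not named here held most of the rise in share. The granzymes did not share a direction. Gzma stood at 3360.1, 7049.9 and 6870.0 in the NaCl libraries and 994, 1726 and 2819 in the DAHB libraries. NaCl replicate 1 was lower than the other NaCl libraries and DAHB replicate 3 was the highest of its group, yet every DAHB value lay below every NaCl value. DAHB+O held 311 ± 153. Gzmf rose from 40.97 ± 6.20 to 129 ± 21.9, while Gzmc fell 1.16-fold, a call lost in 7 of 16 alternative settings. The granzymes next to each other on chromosome 14 are alike in sequence and reads could have been split between them. Unc13d, needed to release granules, fell 1.71-fold and Lamp1, a granule membrane protein, 1.19-fold. Of the killer lectin-like and NK receptors 11 of 22 were higher and 6 lower (10 under quantile normalization, median 0.28), with Tyrobp, the adaptor DAP12, up 2.22-fold and Klrd1, encoding CD94, down 1.48-fold. Some of the killer lectin-like genes are alike in sequence too, so reads could have been split between them. Summed markers of NK cells ran from 1164 to 1229.7 in NaCl and from 1701 to 2138 in DAHB, with 4 of 8 tested markers higher and 3 lower. Most of the rise of the sum was in Eomes, a factor that CD8 T cells also make, from 617 ± 88.6 to 1133 ± 288, whereas Fcer1g, an adaptor of Fc receptors, fell from 162 ± 12.5 to 98.5 ± 12.1 (SD, n = 3). The part of these markers in the values above was not tested.

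Of 13 class II presentation genes 11 were higher and 0 lower (1 under quantile normalization), with a median of 1.01. These proteins present peptides to CD4 T cells and are made mainly by B cells, dendritic cells and macrophages. H2-Oa, which encodes a chain of the class II editor H2-O, stood at 358, 308 and 335 in the NaCl libraries and 1281, 1364 and 1272 in the DAHB libraries, and rose 3.91-fold. H2-Ob, its partner, rose 2.83-fold and H2-DMb1 2.84-fold. Ciita, the master regulator of class II genes, was at 19.5 ± 2.80 and 15.7 ± 0.217 (SD, n = 3) and was not called. Beside these values the summed dendritic cell markers, which include 4 class II genes, ran from 37151 to 38134 in NaCl and from 38207 to 41098 in DAHB, with 9 of 12 tested markers higher and 2 lower and with Clec9a and Siglech not among the genes of the table. Ccr7, which T cells also make, held most of that sum and fell. Of the other markers Fscn1, which encodes the actin bundler fascin, rose from 529.6 ± 31.2 to 2670.0 ± 137, Itgax, encoding CD11c, from 108 ± 5.89 to 296 ± 53.7 and Flt3 from 9.95 ± 2.47 to 25.6 ± 2.95, while Xcr1 fell from 56.0 ± 15.9 to 24.4 ± 1.48. The summed B cell markers were lower in DAHB. Their part in the class II values was not tested. Class I presentation gave 9 higher and 11 lower of 23, with a median of -0.08 that was 0.01 under quantile normalization. Nlrc5, the activator of class I genes, rose 1.59-fold from 3723 ± 175. Psmb9 of the immunoproteasome rose 1.47-fold, while Psmb10, another immunoproteasome subunit, and Erap1, which trims peptides, fell 1.91-fold and 1.76-fold.

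Of 55 tested interferon-stimulated genes 38 were higher and 11 lower, with a median of 0.55. The Schlafen genes, which are interferon-induced and sit side by side on chromosome 11, moved apart. Slfn5 (chromosome 11, 82951349 to 82964840) stood at 95.1, 94.4 and 101 in the NaCl libraries and 1228, 1219 and 1128 in the DAHB libraries and rose by 3.61 ± 0.067 on the log2 scale (SE, limma adjusted p = 6.58e-15). Slfn1 (chromosome 11, 83116849 to 83122670), linked to growth arrest of T cells, stood at 1583, 1809 and 1711 in the NaCl libraries and 543, 632 and 563 in the DAHB libraries, and Slfn2 fell 1.67-fold from 4256 ± 144. Parp14 fell 1.65-fold. The summed monocyte and macrophage markers were at most 801 in NaCl and at least 1619 in DAHB, and their part in these values was not tested. Many interferon-stimulated genes carry the response element bound by ISGF3 and IRF proteins in their promoter. The RefSeq promoter windows (GRCm38.p6, 250 bases before to 50 after the start) of the strongest rises with at least 1 match to its core, GAAANNGAA on either strand with overlaps allowed, are printed 5′ to 3′ along the gene's strand with matches in capitals.
Isg15 promoter, chr4:156200769-156201068, minus strand: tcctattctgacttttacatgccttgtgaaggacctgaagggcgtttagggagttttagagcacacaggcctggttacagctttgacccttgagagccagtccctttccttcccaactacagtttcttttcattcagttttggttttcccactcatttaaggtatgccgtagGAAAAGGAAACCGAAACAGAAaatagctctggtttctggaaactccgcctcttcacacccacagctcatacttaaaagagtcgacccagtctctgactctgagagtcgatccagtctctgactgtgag
Slfn5 promoter, chr11:82951852-82952151, plus strand: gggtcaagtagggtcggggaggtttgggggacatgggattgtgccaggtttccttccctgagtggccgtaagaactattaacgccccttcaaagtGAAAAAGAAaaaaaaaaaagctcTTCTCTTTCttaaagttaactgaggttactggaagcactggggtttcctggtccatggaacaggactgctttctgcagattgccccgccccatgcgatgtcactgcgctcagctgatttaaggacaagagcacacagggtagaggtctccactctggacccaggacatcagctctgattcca
Isg15, whose product is attached to proteins like ubiquitin, held 3 overlapping matches before its start and Slfn5 held 2 matches. The windows of Isg20, also among the strongest rises, held no match and are not printed. The core was in 8.56% of 32851 windows of the same length. Windows were at hand for 40 of 55 tested genes of the list, under 80%, so no share is given for the list.

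Metallothioneins, small cysteine-rich proteins that bind zinc and copper and are induced by metals, were higher in DAHB. Mt3 (chromosome 8, 94152607 to 94154146), known best from brain, stood at 37.2, 40.3 and 42.6 in the NaCl libraries and 1694, 1846 and 2217 in the DAHB libraries, and at 378, 377 and 463 in DAHB+O. It rose by 5.54 ± 0.11 on the log2 scale (SE, limma adjusted p = 9.41e-15). Mt1 stood at 7178, 8947 and 8072 in the NaCl libraries and 18084, 21964 and 21754 in the DAHB libraries, and at 1438 ± 148 in DAHB+O, below its NaCl level of 8066 ± 884. Mt2 rose 3.001-fold from 399.5 ± 50.1 to 1195 ± 16.1 (SD, n = 3) and stood at 119 ± 9.07 in DAHB+O. The groups did not overlap for any of these genes. Mt1 and Mt2 are similar in sequence, and reads could have been split between them. Mtf1, the zinc-sensing factor that drives them, was at 1325 ± 45.7 and 1402 ± 56.9 and was not called. The zinc carriers went both ways, so the whole list had 10 of 24 higher and 7 lower and a median of 0.08. Slc30a3, a zinc exporter into vesicles, rose from 25.9 ± 14.4 to 245 ± 9.93, and the importer Slc39a6 fell 1.47-fold. The promoter windows of the metallothioneins with the strongest rises show matches to TGCNCNC, on either strand with overlaps allowed, in capitals. These letters are a loose form of the metal response element core, so some matches may not be such elements. Which of them are bound was not tested.
Mt3 promoter, chr8:94152357-94152656, plus strand: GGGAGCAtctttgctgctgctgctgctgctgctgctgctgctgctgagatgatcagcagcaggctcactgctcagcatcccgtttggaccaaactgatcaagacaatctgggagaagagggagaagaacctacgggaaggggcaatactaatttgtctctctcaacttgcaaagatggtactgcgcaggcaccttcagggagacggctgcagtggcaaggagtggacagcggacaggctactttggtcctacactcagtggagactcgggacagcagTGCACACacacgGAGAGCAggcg
Mt2 promoter, chr8:94172368-94172667, plus strand: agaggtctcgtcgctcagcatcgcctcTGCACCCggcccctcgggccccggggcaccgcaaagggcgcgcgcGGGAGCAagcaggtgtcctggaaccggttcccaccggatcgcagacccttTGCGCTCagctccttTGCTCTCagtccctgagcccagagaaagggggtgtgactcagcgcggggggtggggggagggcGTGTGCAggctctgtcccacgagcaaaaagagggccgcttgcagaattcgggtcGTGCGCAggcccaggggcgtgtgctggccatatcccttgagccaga
The Mt2 window held 6 matches and that of Mt3 held 3. Of the list's 26 windows, from 21 of 24 genes, 73.1% held at least 1 match, against 51.0% of all windows. Of the 11 windows of higher members 90.9% did, and of the 6 windows of lower members, from 5 of 7 genes, 50%. The difference was not tested.

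Responses to other stresses were mixed. Of NRF2 and thiol antioxidant genes 23 of 47 were higher and 16 lower (median 0.12). Hmox1, heme oxygenase 1, rose 1.74-fold from 570.3 ± 30.96, Gsta4, a glutathione transferase for lipid aldehydes, rose from 19.6 ± 8.66 to 217 ± 20.1 and Cbr3, a carbonyl reductase, from 5.90 ± 2.14 to 161 ± 7.19 (SD, n = 3). Gclc, the rate-limiting enzyme of glutathione synthesis, fell 2.02-fold, and Slc7a11, the cystine importer that feeds it, stood at 87.9, 85.5 and 71.6 in the NaCl libraries and 12.9, 12.6 and 8.34 in the DAHB libraries and at 137 ± 16.7 in DAHB+O. Cytosolic heat shock proteins were lower in 21 and higher in 8 of 34 (median -0.20). Hspb1 (chromosome 5, 135887919 to 135889563), the small heat shock protein HSP27, went against that direction. It stood at 2.07, 1.97 and 4.53 in the NaCl libraries and 188, 184 and 185 in the DAHB libraries and at 143 ± 9.71 in DAHB+O. Hspa1b, an inducible HSP70 with a near-identical copy in Hspa1a, rose from 67.4 ± 8.95 to 253 ± 18.7, and Hspa4l, an HSP70 cochaperone, fell 2.44-fold from 3679 ± 83.1.

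Genes of the endoplasmic reticulum were higher in 19 and lower in 10 of 34 (6 under quantile normalization, median 0.19). Atf6, a sensor of unfolded proteins, rose 2.11-fold from 2077 ± 81.2 to 4383 ± 257, and Hspa5, the chaperone BiP, 1.41-fold from 17845 ± 240.3 (SD, n = 3). The integrated stress response, which raises translation of ATF4 when amino acids or energy run short, went the other way with 11 of 19 regulators lower and 1 higher (2 under quantile normalization, 0 without DAHB replicate 1, median -0.24). Atf4 (chromosome 15, 80255184 to 80257541) stood at 9883, 9291 and 8959 in the NaCl libraries and 5467, 4881 and 4364 in the DAHB libraries, and at 14659, 13599.5 and 13086 in DAHB+O. It fell by 0.94 ± 0.067 on the log2 scale (SE, limma adjusted p = 5.74e-09). Ddit3, encoding CHOP, stood at 448, 379 and 391 in the NaCl libraries and 146, 162 and 164 in the DAHB libraries and at 2014 ± 76.4 in DAHB+O, and Chac1, which degrades glutathione and is induced by ATF4, fell 2.70-fold from 162 ± 24.7 to 59.9 ± 13.4. Targets of ATF4 carry the C/EBP-ATF element, which its dimers bind. Promoter windows of Chac1 and of Trib3, which encodes a pseudokinase that feeds back on the pathway, each held 1 match to TGATGNAA on either strand, shown in capitals.
Trib3 promoter, chr2:152344011-152344310, minus strand: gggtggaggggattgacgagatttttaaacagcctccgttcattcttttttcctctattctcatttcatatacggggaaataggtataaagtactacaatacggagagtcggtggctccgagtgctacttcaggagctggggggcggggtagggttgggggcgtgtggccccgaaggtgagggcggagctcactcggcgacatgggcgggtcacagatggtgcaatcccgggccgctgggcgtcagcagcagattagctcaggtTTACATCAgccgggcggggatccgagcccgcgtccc
Chac1 promoter, chr2:119350992-119351291, plus strand: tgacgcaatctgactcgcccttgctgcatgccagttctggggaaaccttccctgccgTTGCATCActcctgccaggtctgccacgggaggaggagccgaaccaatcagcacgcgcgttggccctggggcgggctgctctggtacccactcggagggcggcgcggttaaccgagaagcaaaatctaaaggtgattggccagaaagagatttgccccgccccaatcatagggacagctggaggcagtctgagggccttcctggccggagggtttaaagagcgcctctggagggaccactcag
Of the 21 windows of the list, from 18 of 19 genes, 23.8% held the element against 3.97% of all windows, and of the 28 windows of the serine, glycine and folate list 7.14% did.

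Genes for osmotic balance gave 9 higher and 11 lower of 21, with a median of -0.10 that was 0.06 under quantile normalization. Slc5a3 (chromosome 16, 92058322 to 92087473), the sodium-coupled importer of the osmolyte myo-inositol, stood at 3215, 2561 and 2948 in the NaCl libraries and 558, 541 and 622 in the DAHB libraries. No value overlapped, and the fall was 2.34 ± 0.077 on the log2 scale (SE, limma adjusted p = 1.64e-12), with 641 ± 35.2 in DAHB+O. Lrrc8a, the essential subunit of the volume-regulated anion channel, fell 1.66-fold, and Sgk1, a kinase induced by hypertonic medium, rose 2.06-fold from 232 ± 13.1. Akr1b3, aldose reductase that makes sorbitol, gave a log2 fold change of -0.10 that was 0.06 under quantile normalization, and its call was lost in 7 other settings.

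Members of the BCL2 family, which promote or block cell death, changed in both directions. In the list 10 were higher (6 under quantile normalization) and 9 lower of 26, with a median of 0.01 that was -0.02 without NaCl replicate 2. Bcl2l11 (chromosome 2, 128126038 to 128162547), the death-promoting protein BIM, stood at 5257, 5623 and 6103 in the NaCl libraries and 16371, 17103 and 17309 in the DAHB libraries, and rose 2.99-fold. Bmf, another BH3-only protein, rose 1.81-fold, whereas Bbc3, the BH3-only protein PUMA that p53 induces, fell 1.85-fold. Of the survival proteins Bcl2 fell 1.55-fold from 12224 ± 240.0 to 7879 ± 213 (SD, n = 3), Mcl1 rose 1.12-fold, and Bcl2a1d, 1 of several near-identical A1 copies, rose 2.99-fold. Targets of p53 were lower in 14 and higher in 10 of 30 (median -0.08). Gadd45g rose 4.81-fold from 424 ± 21.3, Plk2 stood at 413, 328 and 362 in the NaCl libraries and 71.6, 76.5 and 62.6 in the DAHB libraries, and Gtse1, which restrains p53 in G2, fell 3.03-fold from 2329.6 ± 71.2.

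Lysosomal genes were higher in 26 and lower in 18 of 49 (median 0.20). Lgmn, the asparagine protease legumain, stood at 127, 119 and 94.2 in the NaCl libraries and 1073, 1194 and 1136 in the DAHB libraries, and the tetraspanin gene Cd63 rose 6.36-fold from 134 ± 19.4 to 853 ± 42.1 (SD, n = 3). Scarb2, the carrier of glucocerebrosidase, fell 1.89-fold. The lysosomal E-box TCACGTG, bound by TFEB, was in 20.8% of the 53 windows of the list, from 41 of 49 genes, against 3.77% of all windows, in 21.4% of those of higher members and 27.8% of those of lower members. The proton pump that acidifies lysosomes had 9 of 20 subunits higher and 6 lower (3 under quantile normalization, median 0.06). Atp6v0d2, the d2 subunit found mostly in osteoclasts and macrophages, stood at 84.8, 145 and 148 in the NaCl libraries and 668, 924 and 1352 in the DAHB libraries and at 122 ± 44.8 in DAHB+O. Beside it the monocyte and macrophage marker sums given above were higher in DAHB, with Csf1r, Cd14 and Lyz2 lower. Autophagy genes were lower in 19 (12 under quantile normalization) and higher in 12 of 36, with a median of -0.12 that was 0.00 under quantile normalization. Ulk1, the starting kinase, fell 1.55-fold and Pink1, the mitophagy kinase, 1.67-fold from 1828 ± 37.3.

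Of the TCA cycle and pyruvate enzymes 21 were lower and 7 higher of 38 (median -0.12). Dld, the E3 subunit shared by pyruvate and oxoglutarate dehydrogenase, fell 1.70-fold from 4521 ± 116 to 2664 ± 43.5, and Pck2, mitochondrial phosphoenolpyruvate carboxykinase, fell 2.15-fold and stood at 5479.5 ± 290.4 in DAHB+O (SD, n = 3). Citrate synthase, encoded by Cs, rose 1.23-fold, and Idh2 1.40-fold. Mitochondrial ribosomal proteins were lower in 38 and higher in 20 of 76 (median -0.15), with Mrpl52 up 1.94-fold and Mrps22 down 1.57-fold. The import machinery had 20 lower and 6 higher of 46 (10 with edgeR, 11 with TMM rescaling, 16 under quantile normalization, median -0.09). Lonp1, the main matrix protease, stood at 18348, 18163 and 17839 in the NaCl libraries and 9064, 9303 and 9027 in the DAHB libraries, and Hspa9, the matrix HSP70 that pulls proteins in, fell 1.63-fold from 21888 ± 473 and stood at 33698 ± 1663 in DAHB+O. Complex I genes were 15 higher (23 under quantile normalization) and 12 lower of 44, with the core subunits Ndufs1, Ndufs3 and Ndufs7 down 1.40-fold, 1.47-fold and 1.45-fold and the accessory subunits Ndufa7 and Ndufv3 up 1.40-fold and 1.34-fold. Among 21 genes of ATP synthase 7 were higher and 7 lower. The alpha subunit gene Atp5a1 was 1.24-fold lower, the catalytic beta subunit gene Atp5b 1.41-fold lower and the delta subunit gene Atp5d 1.35-fold higher. Subunits of complexes II, III and IV were higher in 17 and lower in 4 of 27 (median 0.18). Cox4i2 and Cox7a1, isoforms of complex IV subunits, rose 4.84-fold and 2.30-fold, while Sdha and Sdhb of the succinate dehydrogenase in complex II fell 1.49-fold and 1.24-fold and Uqcrc1 of complex III 1.46-fold. Of 14 tested genes of the mitochondrial genome, counted after their values were seen, 11 were higher and 0 lower (8 and 1 under quantile normalization, median 0.57). Among them mt-Nd4, a complex I subunit, stood at 16377, 15809.5 and 16013.5 in the NaCl libraries and 33299, 26508 and 30200.1 in the DAHB libraries. Of 40 mitochondrial carriers 14 were higher and 13 lower (median 0.06), with the calcium-regulated ATP-Mg carrier Slc25a24 up 2.72-fold and the dicarboxylate carrier Slc25a10 down 1.76-fold.

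Glycolysis and HIF-1 targets were higher in 18 and lower in 4 of 35 (10 under quantile normalization, median 0.18). Hif1a rose 1.49-fold from 19582 ± 615, and Eno2, an enolase, 2.67-fold. Vegfa, an angiogenic growth factor that HIF-1 induces, fell 1.55-fold and the demethylase Kdm3a 1.71-fold. Genes that handle lactate, hydroxy acids and ketone bodies gave 8 higher and 10 lower of 20, with a median of -0.03 that was above 0 with TMM rescaling (0.01), edgeR (0.01), quantile normalization (0.03) and no filter on low values (0.06). Ldha, the main lactate dehydrogenase of these cells at 162533 ± 2116 and 170646 ± 6738, was not called. Ldhb, the heart-type chain, stood at 436, 412 and 465 in the NaCl libraries and 925, 976 and 956 in the DAHB libraries. Ldhd, which oxidises D-lactate and other D-2-hydroxy acids, rose from 47.4 ± 6.14 to 186 ± 22.7. Bsg, the chaperone of the monocarboxylate carriers, rose 1.53-fold from 34446 ± 511. Bdh1 and Oxct1, enzymes of ketone body use, fell 1.56-fold and 1.55-fold. In the pentose phosphate pathway 7 were lower and 3 higher of 13 (median -0.26). Pgd, the dehydrogenase that yields NADPH, fell 1.71-fold from 7525 ± 257, and Taldo1, transaldolase, rose 1.56-fold.

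Sterol and fatty acid synthesis genes were lower in 29 of 39 cases and higher in 7 (median -0.44). Hmgcs1, which makes the sterol precursor HMG-CoA, stood at 16564, 17001 and 17605 in the NaCl libraries and 9363, 9996 and 9390.3 in the DAHB libraries and at 3884 ± 254 in DAHB+O. Fads1, a desaturase of long fatty acids, fell 2.51-fold from 2062 ± 67.3 to 822 ± 54.0, and Acacb, the acetyl-CoA carboxylase that gates fatty acid oxidation, rose 3.47-fold from 57.4 ± 8.68 (SD, n = 3). Vldlr, a lipoprotein receptor, fell 2.65-fold. Fatty acid oxidation genes were higher in 15 and lower in 9 of 30 (median 0.19). Etfb, the electron carrier of beta oxidation, rose 2.88-fold. Cpt1a, the gate of mitochondrial import, fell 1.26-fold, and the acyl-CoA synthetases Acsl5 and Acsl3 2.16-fold and 2.08-fold. Among 13 LXR and cholesterol efflux genes 8 were higher and 3 lower (median 0.20), with Apoe down 2.21-fold and Arl4c up 1.53-fold. Rxra, the partner of LXR and other nuclear receptors, rose from 84.5 ± 12.9 to 485 ± 103.

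Of 28 tested amino acid carriers 19 were lower and 4 higher (median -0.25). Slc7a2, a carrier of arginine and lysine, stood at 208, 221 and 226 in the NaCl libraries and 18.9, 18.4 and 34.4 in the DAHB libraries, the largest fall among the named genes of its list, and at 19.6 ± 2.398 in DAHB+O. Slc6a9, the glycine carrier GLYT1, stood at 286, 236 and 277 in the NaCl libraries and 70.6, 32.9 and 51.1 in the DAHB libraries and at 376 ± 8.43 in DAHB+O. Slc7a7, which exchanges cationic for neutral amino acids, rose 3.53-fold from 38.2 ± 1.75. Serine, glycine and folate enzymes were lower in 21 and higher in 6 of 31 (median -0.41), with Aldh1l2, a folate dehydrogenase of mitochondria, down 2.49-fold and Pycr1, which makes proline, up 1.88-fold. Of the aminoacyl-tRNA synthetases 27 were lower and 8 higher of 40 (median -0.33). Eprs, the synthetase for glutamate and proline, stood at 14330.0, 13604 and 13606 in the NaCl libraries and 8302, 7899 and 7463 in the DAHB libraries, and Cars, the one for cysteine, fell 1.87-fold. The count of higher synthetases was 4 without DAHB replicate 2 and 5 without DAHB replicate 1 or NaCl replicate 1. Among the 110 other solute carriers 49 were higher and 35 lower (median 0.09), Slc17a7, a vesicular glutamate carrier of neurons, rising from 74.8 ± 16.6 to 543 ± 18.8.

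Of 57 ribosome biogenesis genes 45 were lower and 3 higher (median -0.34). Ubtf, which opens ribosomal DNA for RNA polymerase I, stood at 5494, 5281 and 5298 in the NaCl libraries and 2487, 2269 and 2072 in the DAHB libraries, and Utp20, part of the small-subunit processome, fell 2.28-fold from 2161 ± 156. The E-box CACGTG, which MYC binds, was in 14.8% of the 61 windows of the list, from 51 of 57 genes, against 7.15% of all windows. The count of lower members was 31 and of higher members 5 under quantile normalization. Of the snoRNA host genes 6 of 10 were lower and 0 higher (median -0.41), with Snhg5 at 762 ± 55.4 in NaCl, 354 ± 8.11 in DAHB and 3169.8 ± 85.5 in DAHB+O (SD, n = 3). Initiation and elongation factors were lower in 34 and higher in 14 of 59 (median -0.20). Eif4g2, a scaffold of internal initiation, fell 1.80-fold from 30725 ± 553 to 17109.6 ± 1072, and Eif3k rose 1.53-fold. Splicing factors and hnRNPs were lower in 53 of 69 cases and higher in 4 (7 under quantile normalization, median -0.37). Hnrnpa2b1, an abundant RNA-binding protein, stood at 52938, 53856 and 56169 in the NaCl libraries and 30876, 30306 and 26788 in the DAHB libraries without overlap. Cytosolic ribosomal proteins gave 27 higher and 9 lower (25 under quantile normalization) of 81, with Rpl30 falling 1.16-fold. Proteasome subunits were lower in 22 and higher in 7 of 47, with a median of -0.09 that was 0.04 under quantile normalization, where 10 were lower and 18 higher.

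Of 51 tested MCM, polymerase and replication fork genes 51 were lower and 0 higher (median -0.83). Mcm10, which starts the helicase, stood at 2905, 2748 and 2660.3 in the NaCl libraries and 1027, 902 and 837 in the DAHB libraries, and Timeless, a protector of the fork, fell 2.76-fold from 2957 ± 112. Of the homologous recombination and Fanconi genes 32 were lower and 3 higher of 38 (median -0.65). Bard1, the partner of BRCA1, fell 2.76-fold and Palb2 2.63-fold, while Rad51c, a recombination protein, rose 1.82-fold from 221 ± 21.7 to 403 ± 10.2 (SD, n = 3), and Fance and Rad52 rose 1.19-fold and 1.37-fold. Cohesin, condensin and topoisomerase genes were lower in 24 and higher in 1 of 25 (median -0.67). Smc4, a condensin subunit, stood at 17326, 16851 and 16333 in the NaCl libraries and 6529, 6234 and 5762 in the DAHB libraries. The higher member was Pttg1, securin, which holds back separase before anaphase, at 537, 549.6 and 547 in the NaCl libraries and 1055, 983 and 894 in the DAHB libraries. Of the kinetochore and CENP genes 37 were lower and 2 higher of 40 (median -0.95), with Cenpe, a kinetochore motor, down 2.71-fold from 5469 ± 293 and Cenpb and Cenpp up 1.16-fold and 1.41-fold. In the G1 list 18 were lower and 9 higher of 31 (median -0.30). Ccnd2, the D-type cyclin of early lymphocyte activation, stood at 17640.5, 16969 and 16453 in the NaCl libraries and 37991, 35872 and 35825 in the DAHB libraries. Cdkn1b, encoding the inhibitor p27, fell 2.73-fold from 4418 ± 132 to 1627 ± 204, and Cdkn2d, encoding the inhibitor p19, rose 1.58-fold. In the MYC network 5 were higher and 5 lower of 14, with a median of -0.04 that was 0.06 under quantile normalization. Mxd1, an antagonist of MYC, stood at 2037, 2333 and 2192 in the NaCl libraries and 3869.8, 4619.9 and 4853 in the DAHB libraries and at 1013 ± 84.6 in DAHB+O, and Mxd4, another one, fell 2.07-fold.

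**Figure D3:**
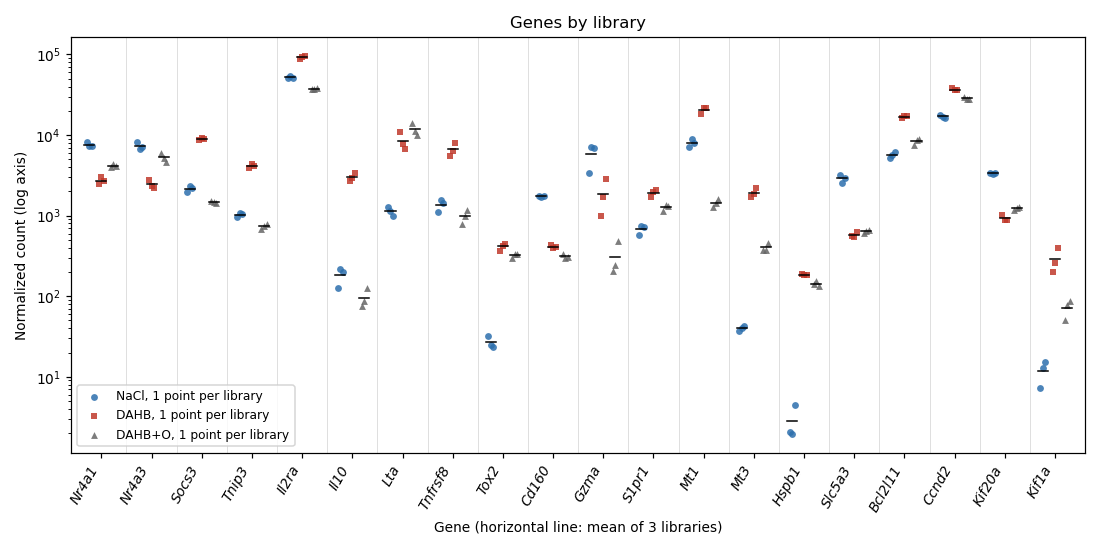
Normalized counts (log axis) of 20 genes named in the text in each of the 3 NaCl (circles), 3 DAHB (squares) and 3 DAHB+O libraries (triangles), with horizontal lines at the means. The NaCl and DAHB points of each gene do not overlap. The choice of genes named from lists required this, and it held for 75.6% of all genes tested. For Socs3, Tnip3, Il10, Tnfrsf8 and Mt1 the DAHB+O mean lies below the NaCl mean, as in Il10 with 95.6 ± 26.9 against 182 ± 47.9.

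Genes of microtubules went both ways, the tubulins that form them and the kinesins that run on them. Of 48 tested genes 28 were lower and 17 higher (median -0.33). The lower members include the motors of the mitotic spindle, a grouping made after the values were seen. Kif20a, which is needed for the last step of cell division, stood at 3388, 3293 and 3371 in the NaCl libraries and 1015, 892 and 874 in the DAHB libraries, with no overlap, and fell by 1.86 ± 0.057 on the log2 scale (SE, limma adjusted p = 7.98e-13). Kif15 (chromosome 9, 122951046 to 123018733) and Kif4 fell 3.01-fold and 2.92-fold, and Kif11, the motor that pushes spindle poles apart, from a mean of 8726 to 3490.3. The higher members include some motors known from neurons and cilia, a grouping also made after the values were seen. Kif1a, which moves synaptic vesicle precursors, stood at 7.24, 12.8 and 15.4 in the NaCl libraries and 197, 259.5 and 401 in the DAHB libraries, Kif5c at 68.3, 73.7 and 75.2 in the NaCl libraries and 483, 449 and 469 in the DAHB libraries, and Kif19a, a kinesin of cilia, rose from 23.9 ± 2.08 to 244 ± 7.02 (SD, n = 3). Log2 fold changes were 2.11 for Kif5a and 1.58 for Tubb3, the neuronal beta-tubulin, against -0.28 for Kif5b, the kinesin-1 of most cells, and -0.36 for Tubb5, the most abundant tubulin here. Not every member known from neurons or cilia was higher, since Tubb4a, a beta-tubulin of brain, gave -1.16, Kif21b -0.30 and Kif7, a kinesin of cilia, -0.30, all called lower, and Kif17 was not called. The tubulin genes are alike in sequence, so reads could have been split among them. Genes of mitosis often carry the cell cycle genes homology region (CHR) near the start, which the DREAM and MuvB complexes bind. The windows of the strongest falls among kinesins with a match to TTTGAA on either strand show it in capitals.
Kif15 promoter, chr9:122950831-122951130, plus strand: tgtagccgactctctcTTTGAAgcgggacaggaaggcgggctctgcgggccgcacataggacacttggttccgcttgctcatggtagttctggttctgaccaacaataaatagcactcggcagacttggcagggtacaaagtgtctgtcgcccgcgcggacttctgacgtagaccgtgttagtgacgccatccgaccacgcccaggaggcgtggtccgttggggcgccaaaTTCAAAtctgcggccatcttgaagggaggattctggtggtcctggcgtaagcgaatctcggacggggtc
Kif4 promoter, chrX:100625815-100626114, plus strand: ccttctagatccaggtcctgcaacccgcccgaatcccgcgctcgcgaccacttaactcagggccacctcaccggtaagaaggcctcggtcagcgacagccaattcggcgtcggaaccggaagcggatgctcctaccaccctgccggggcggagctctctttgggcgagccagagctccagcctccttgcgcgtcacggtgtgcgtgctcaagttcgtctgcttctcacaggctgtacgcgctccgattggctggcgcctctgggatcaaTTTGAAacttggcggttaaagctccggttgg
Kif15 held 2 matches and Kif4 held 1, at base 270 of the window. The window of Kif18a, also among the strongest falls, held no match and is not printed. The windows of Ska2, Nuf2 and Cenpe, among the strongest falls of the kinetochore list, held no match either. Windows were at hand for 37 of the 48 kinesin and tubulin genes, under 80%, so their share is not given. Of the 38 kinetochore windows, from 34 of 40 genes, 34.2% held the CHR letters and 63.2% a CCAAT box, against 17.9% and 37.4% of all windows, and of the 21 cohesin and condensin windows, from 20 of 25 genes, 42.9% held the CHR and 47.6% the CCAAT box.

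**Figure D4:**
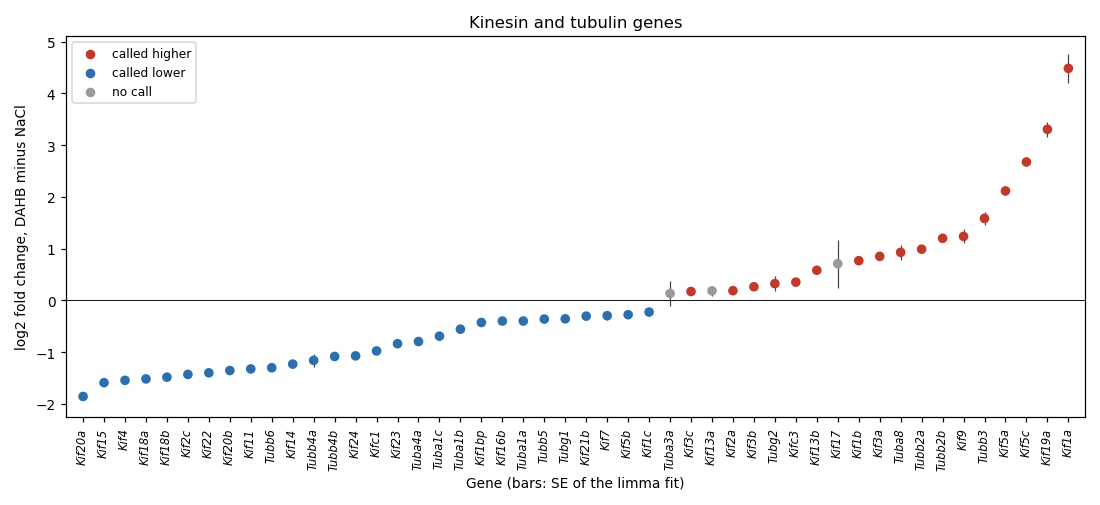
Log2 fold change (DAHB minus NaCl) of each of 48 tested kinesin and tubulin genes, in rising order, with bars for the SE of the limma fit and colours for the call. Kif20a is lowest at -1.86 and Kif1a highest at 4.48, and 3 genes, Tuba3a, Kif13a and Kif17, were not called.

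Of 42 remodeler genes 37 were lower and 2 higher (median -0.44), with Hells, a helicase that helps maintain DNA methylation, down 2.30-fold from 4987 ± 264 to 2173 ± 276 and at 5281 ± 161 in DAHB+O (SD, n = 3). The higher count was 1 at a minimum mean of 50, without DAHB replicate 3 and without NaCl replicate 1. Of histone and DNA methylation enzymes 38 were lower and 2 higher of 47 (median -0.49). Setd2, which trimethylates lysine 36 of histone H3, stood at 4237, 3913 and 3826 in the NaCl libraries and 2092, 1927 and 2092 in the DAHB libraries, and Tet1, which oxidises methylcytosine, fell 1.99-fold. The higher count of this list fell to 0 without NaCl replicate 3 and to 1 without NaCl replicate 2, DAHB replicate 2 or DAHB replicate 3, and it was 5 under quantile normalization. Ezh2, the methyltransferase of the Polycomb complex PRC2, gave a log2 fold change of -0.13, a call lost under quantile normalization. Acetylation writers, erasers and readers were lower in 24 and higher in 10 of 38 (median -0.28). The deacetylase Sirt1 stood at 959.7, 860.2 and 961 in the NaCl libraries and 377, 392.2 and 331 in the DAHB libraries, and Ncor1, the corepressor that carries HDAC3, fell 1.81-fold from 10043 ± 555. Sirt5, a mitochondrial deacylase, and Brdt, a reader known from testis, rose 1.82-fold and 1.71-fold. Histone genes gave 15 higher and 7 lower of 45, with a median of 0.25 that was -0.36 under quantile normalization, where 8 were higher and 18 lower. Most histone messages of S phase lack a poly(A) tail and are poorly sampled by poly(A) RNA. H2afx, which has a tail, fell 2.34-fold from 2947 ± 101.

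Transcription factors of effector and memory cells were higher in 25 and lower in 10 of 41 (median 0.44). Hlx, a homeobox factor of type 1 T cells, stood at 12.4, 19.7 and 9.06 in the NaCl libraries and 340.3, 381 and 374 in the DAHB libraries, and at 50.6 ± 14.2 in DAHB+O. Id2, an E protein inhibitor of effector cells, rose 2.34-fold from 3189.6 ± 417 (SD, n = 3). Ikzf2, which encodes Helios, stood at 1666, 1761 and 1930.0 in the NaCl libraries and 617, 747 and 866 in the DAHB libraries, and Zeb1, a zinc finger repressor, fell 2.10-fold. Zeb2, a factor of terminal effector cells, was at 457 ± 33.8 and 463 ± 6.48 and was not called. Nuclear receptors and clock genes were close to the background, 15 higher and 16 lower of 39 (median 0.03), with Nr1d2, a clock repressor, down 2.27-fold. The 315 tested genes named Zfp, most of which encode zinc finger repressors, were lower in 172 and higher in 57 cases, 54.6% and 18.1% (median -0.26). Zfp629 stood at 689, 689 and 633 in the NaCl libraries and 247, 264 and 247 in the DAHB libraries, and Zfp941 rose from 17.5 ± 5.13 to 116 ± 15.6. By chromosome the medians ran from -0.13 for the 381 genes of chromosome X, of which 29.4% were higher, to 0.04 for the 477 genes of chromosome 15, of which 40.7% were higher.

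Genes better known from other tissues were among the weakly expressed ones that rose. Of ion channels and neurotransmitter receptors 51 were higher and 15 lower of 84 (median 0.81). Scn4b, a sodium channel subunit, rose from 5.09 ± 2.08 to 123 ± 13.4 and Cacna1i, a T-type calcium channel, from 6.92 ± 2.86 to 142 ± 21.7 (SD, n = 3). The largest falls were in genes with higher levels, the potassium channel gene Kcnq5, 2.48-fold from 1004 ± 39.0, and the lysophospholipid receptor gene P2ry10, 2.43-fold from 7491 ± 383. At a minimum mean of 50 the channel list gave 26 higher and 14 lower, and under quantile normalization 42 and 23. Genes were tested by their mean over all libraries, so one weak in NaCl could pass only through libraries where it was high. With no filter on low values the channel list gave 53 higher and 15 lower of 104 (median 0.65). Collagens, laminins, cadherins and claudins were higher in 38 and lower in 3 of 55 (9 under quantile normalization, median 0.98). With no filter 41 were higher and 5 lower of 69 (median 0.81). Col9a2, a collagen of cartilage, rose from 4.25 ± 1.59 to 196 ± 23.4, and Cldn7, a tight junction protein, from 9.39 ± 2.97 to 184 ± 25.99. Among keratins, myosins and muscle genes 16 were higher and 5 lower of 24 (3 under quantile normalization or without DAHB replicate 3, median 0.71), with Tpm2, a tropomyosin of muscle, at 30.0, 27.5 and 27.2 in the NaCl libraries and 873, 978 and 844 in the DAHB libraries. Summed markers of stroma and endothelium, mostly Pecam1, ran from 1142 to 1255 in NaCl and from 1655 to 1791 in DAHB, with 3 of 3 tested markers higher, while Col3a1, Cdh5, Dcn and Acta2 were not among the genes of the table. Their part in these values was not tested.

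Over all genes the largest rises among those with a mean of at least 50 included Prtn3, a serine protease of neutrophil granules, at 8.27, 4.92 and 2.72 in the NaCl libraries and 180.1, 262 and 277 in the DAHB libraries. Mapk13, the p38 delta kinase, rose from 9.35 ± 1.505 to 376 ± 12.2, and Itga9, an integrin chain, from 1.91 ± 0.844 to 100 ± 7.33 (SD, n = 3). The neutrophil markers Ly6g and Cxcr2, given above, were higher in DAHB as well, and their part in the value of Prtn3 was not tested. Elane and Mpo, made in the same granules, were not among the genes of the table. The largest falls included F10, the clotting factor X, at 72.4, 61.9 and 60.7 in the NaCl libraries and 6.97, 3.87 and 14.6 in the DAHB libraries, and Pla2g7, an enzyme that inactivates platelet-activating factor, at 64.1, 85.5 and 81.5 in the NaCl libraries and 12.9, 12.6 and 11.47 in the DAHB libraries. Sirpa, an inhibitory receptor of myeloid cells, fell 4.85-fold from 106 ± 4.55 to 21.8 ± 7.77, and Capn3, a calpain known from muscle, 5.69-fold from 57.4 ± 8.92. Several of the remaining large falls carry clone names only, such as RP24-127M20.2 at 143 ± 6.06 and 24.4 ± 3.23.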

How the data were processed

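Poly(A) RNA was sequenced in 9 libraries, 3 per group, per the labels. The submitters' processing notes name HTSeq 0.9.1, STAR 2.4, DESeq2, Trim Galore 0.4.5 and Picard, without roles or settings, and mm10 as the build. The annotation and the treatment of strand are not stated by the sources at hand, so reads of overlapping or antisense genes cannot be told apart. The deposited values are a signal made by the authors, read counts divided by a size factor per library (normalized counts), as the values themselves show: all were whole multiples of 1 step per library, within 1e-06. The table held 16344 genes, none with a 0 in any library, so a gene silent in a group can be missing. The value of Slc7a5 in NaCl replicate 2 was blank and left out, and 21 genes with a bare number for a symbol were not named.

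After adding a pseudocount of 1 and taking log2, genes with a mean of at least 10 were fitted with limma 3.58.1 (R 4.3.3) in 1 model of 9 libraries with a variance trend and no block, two-sided, with Benjamini-Hochberg adjustment over 14169 genes. The fit was tested on data simulated from NaCl levels, with few genes changed and the scaling known. That setting is unlike these data, so it does not test the scaling or an unequal spread of the groups. Members, the 69 lists and tests were chosen with earlier results of these data known, so no list is independent evidence. Lists are described by counts and medians, without a set test. Named genes are up to 3 called rises and 3 called falls per list (groups not overlapping, mean of at least 100 in the higher group), the 20 largest rises and falls (mean of at least 50), markers and a fixed panel; further kinesins and tubulins were named after their values were seen. Coordinates came from GENCODE vM21 (GRCm38), matched by symbol for 508 of 516 named genes. Promoters came from RefSeq (GRCm38.p6), matched for 66.6% of tested genes. Alternatives were other scalings (TMM, quantile), count tests on whole reads (edgeR 4.0.16, DESeq2 1.42.0), pseudocounts of 0.5 and 10, no filter, a minimum mean of 50, the 6 libraries alone, a replicate block, and each library left out. A few of the named genes are left out of the text.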

Additional observations from a re-analysis of the deposited data

How the results depend on the processing

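The counts of 5031 higher and 5441 lower genes moved by less than 1.5 times in all 16 alternatives. They were 5333 and 5173 with edgeR, 4974 and 5105 with DESeq2, 5297 and 5154 after TMM rescaling and 4664 and 5917 under quantile normalization. Leaving out a library gave 4767 to 4945 higher and 5206 to 5408 lower. Quantile normalization lost 1864 calls and turned 10. Among named genes it gave log2 fold changes of the other sign for Akr1b3 (0.061), Atp5s (-0.028), Ears2 (-0.135), Fads3 (-0.110), Il2rb (-0.082), Itgam (-0.017), Klf1 (-0.658), Mylip (-0.105) and Nefh (0.013); the cause was not tested. Of 8227 values of named genes under an alternative, 77 lost a call and 24 gained one. Of 1104 list medians, 138 moved by more than 1 SD of the libraries' list medians.

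Replicate numbers were not taken to pair the samples, since nothing in the labels says that they do. Deviations of same-numbered libraries correlated at 0.11, 0.08 and 0.03, each library of NaCl best with its own number. That is a hint of pairing from the data and not from the design. With the replicate number as a block 5129 genes were higher and 5554 lower, 20 calls were lost, and 7 glycolysis genes were lower in place of 4.

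Precision is limited by 3 libraries per group and, for genes with few reads, by depth. Fold changes of weak genes are understated on this scale. A weak gene near 0 in NaCl has no stable fold change.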
